A study of Rattus norvegicus with 4 samples.

Results

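The Notch genes described here are 10, namely 4 receptors (Notch1, Notch2, Notch3, Notch4), 2 ligands (Jag1, Jag2) and 4 target genes (Hes1, Hey1, Hey2, Heyl). They were read by gene name from the tables of a study of rat H9C2 cells. Each of the 10 names matched 1 row among 33778 gene identifiers. The study sequenced RNA from 4 libraries, 2 of cells without PAGln (control 1 and control 2) and 2 of cells kept for 48 h with PAGln at 100 µM (PAGln 1 and PAGln 2). H9C2 is a cell line from embryonic rat heart with many features of skeletal myoblasts, and PAGln is phenylacetylglutamine, which the body makes from glutamine and phenylacetate, a product of gut bacteria. Both groups were grown in the same serum-containing medium with antibiotics, no genetic change is named for either, and all libraries come from a single cell line. Separate cultures are not named for the libraries within a group, so p-values reflect how far these libraries vary, and that variation may be technical.

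Notch receptors are single-pass membrane proteins that are activated by ligands of the Jagged and Delta-like type on a neighbouring cell. Ligand pulling exposes a cleavage site for an ADAM protease, gamma-secretase then frees the intracellular domain, and this domain joins the DNA-binding protein RBPJ and a Mastermind coactivator at target genes. The best known targets are the HES and HEY repressors, which bind DNA through a basic helix-loop-helix domain. In muscle, Notch signalling holds satellite cells and myoblasts in the undifferentiated state, and in heart it acts in endocardium, valves and the developing ventricular wall.

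The values are FPKM (fragments scaled to gene length and to sequencing depth), a scale on which levels of different genes can be compared. The libraries correspond to 13507110 to 14984712 reads, as worked out from the FPKM and the gene lengths. The labels call the cells cardiac myocytes. Of 12 striated muscle markers 7 had a 4-library mean of at least 1 FPKM, among them Myod1, Itga7, Cdh15 and Tnnt2, while the cardiac myosin genes Myh6 and Myh7 and the sarcomeric genes Actc1 and Actn2 lay under it and Myf5 was at 0. Of 6 fibroblast markers 3 reached it, with Dcn and Lum at 0. Of other cell types that use Notch signalling, 1 of 7 endothelial markers found (Flt1) reached 1 FPKM and Cdh5 was at 0, and 0 of 6 neural markers did. The summed level of the endothelial list was 13.3 to 15.0 FPKM in control and 13.5 to 15.8 FPKM in PAGln libraries. Flt1 made up most of this sum (mean 13.2 FPKM), and Vwf lay just under 1 FPKM (mean 0.987 FPKM). In bulk RNA, fewer cells of a type and less RNA per cell cannot be told apart.

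Among these 10 genes, Notch2 was the main receptor, Jag1 the main ligand and Hes1 the main target in the RNA of H9C2 cells. None of the 5 genes that could be tested passed for a difference with PAGln. Of the 10, these 5 reached the filter of a mean of 1 FPKM and were tested (Notch1, Notch2, Notch3, Jag1 and Hes1). The other 5 (Notch4, Jag2, Hey1, Hey2 and Heyl) lay under it and are described by their level and their reads, with no test. The plot of members by library shows all 10 genes.

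**Figure D1:**
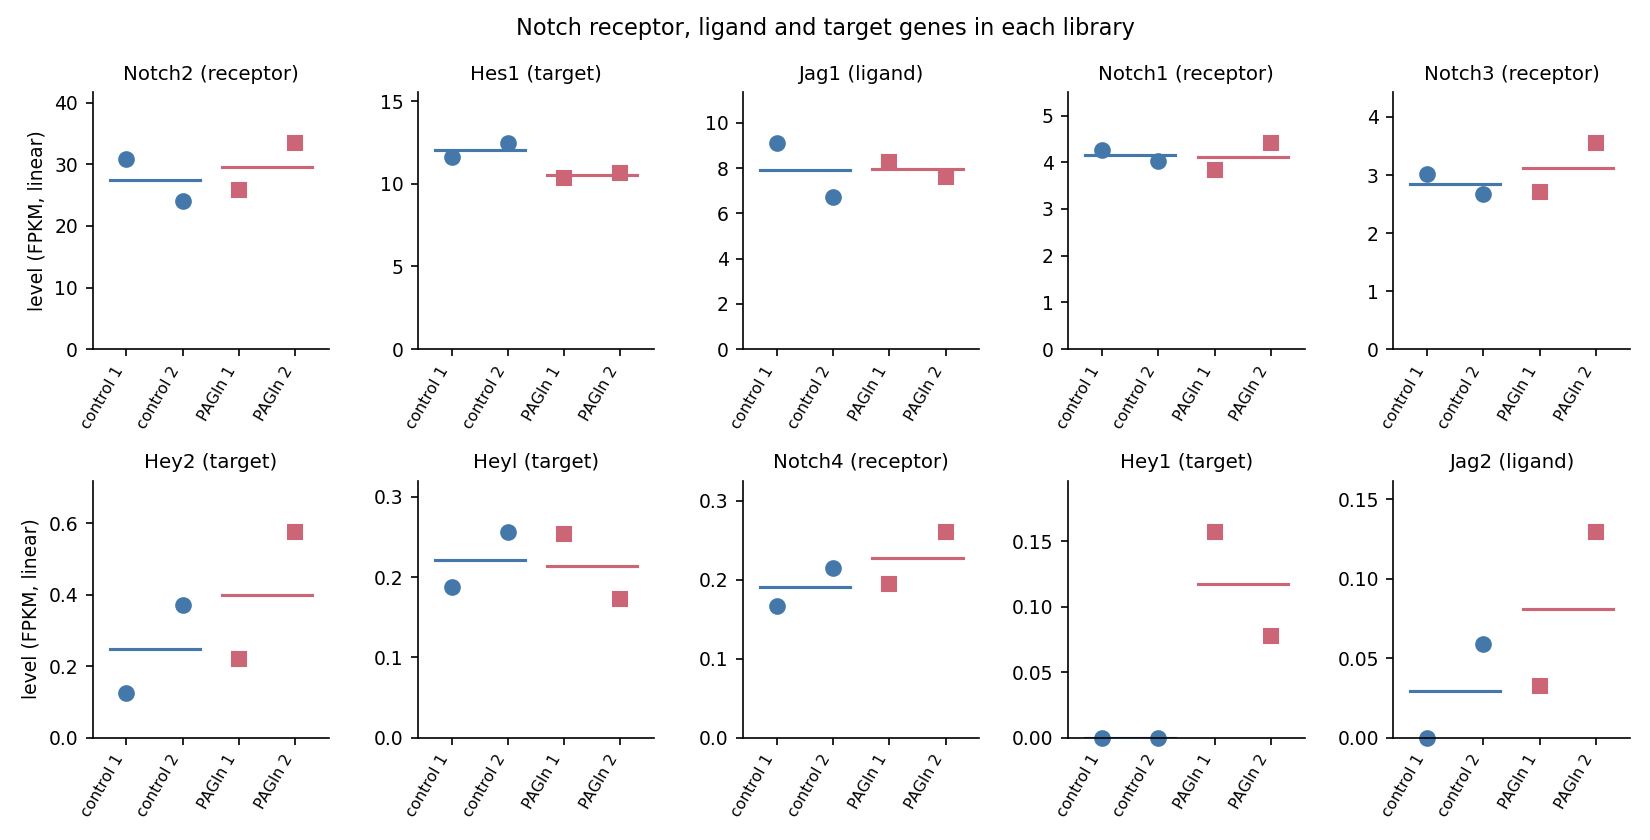
Level of each gene (FPKM, linear axis from 0, a separate scale for each gene) in control libraries (blue circles) and PAGln libraries (red squares), with horizontal lines at the group means (n = 2 each). Hes1 is the only gene of the upper row, which holds the 5 tested genes, in which the PAGln libraries (10.4 and 10.6 FPKM) lie apart from the control libraries (11.6 and 12.4 FPKM).

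Notch2 was the most abundant receptor and, at a mean of 28.5 FPKM, lay above 74.9% of all tested genes. The deposited tables place it on chromosome 2 from 200187179 to 200320215 on the plus strand, on a rat build that the sources used here do not name, as for all gene positions below. It had 30.9 FPKM for control 1 and 24.1 for control 2, beside 25.8 for PAGln 1 and 33.4 for PAGln 2. Control 1 and PAGln 2 were thus the high libraries and the groups overlapped. The group levels were 27.5 ± 4.83 FPKM in control and 29.6 ± 5.38 FPKM with PAGln (SD, n = 2 each), and the log2 fold change, PAGln less control after log2(FPKM + 1), was 0.10 (SE 0.18, 95% interval -0.37 to 0.57, limma adjusted p = 1.00). It was -0.07 without control 2 and -0.08 without PAGln 2.

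Notch1, a receptor known from leukaemia and from heart valve development, lies on chromosome 3 from 3905453 to 3951025 on the minus strand. Its level was 4.26 FPKM for control 1 and 4.04 for control 2, beside 3.84 for PAGln 1 and 4.40 for PAGln 2. The PAGln libraries were the lowest and the highest of the set, with both controls between them. The log2 fold change was -0.01 (SE 0.16, 95% interval -0.41 to 0.39, limma adjusted p = 1.00), and it was 0.02 without control 1 and 0.07 without PAGln 1.

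Notch3, known for its role in vascular smooth muscle cells and pericytes, lies on chromosome 7 from 14138495 to 14189688 on the minus strand. It had 3.01 FPKM for control 1 and 2.66 for control 2, beside 2.70 for PAGln 1 and 3.54 for PAGln 2. PAGln 2 was the highest library and PAGln 1 lay between the controls. The log2 fold change was 0.10 (SE 0.19, 95% interval -0.40 to 0.59, limma adjusted p = 1.00), and it was -0.05 without PAGln 2. Of 7 markers of smooth muscle and pericytes, cells in which Notch3 is typical, 5 reached 1 FPKM. Cspg4 had a mean of 0.297 FPKM and Rgs5 was at 0. The summed level was 5273 to 5301 FPKM in control and 4122 to 5387 FPKM in PAGln libraries. Most of it came from Acta2 (mean 3843 FPKM) and Tagln (mean 994 FPKM). The part of such cells in the Notch3 values was not tested.

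Notch4, a receptor best known from endothelium, was near the limit of detection. It had 16 reads for control 1 and 21 for control 2, beside 17 for PAGln 1 and 23 for PAGln 2, which correspond to 0.166, 0.215, 0.194 and 0.260 FPKM. The groups overlapped. The tables place Notch4 on chromosome 20 from 4329811 to 4353785, where it overlaps LOC103689965 on the opposite strand (mean 0.116 FPKM). Whether reads were counted by strand is not given in the sources used here, so the few Notch4 reads cannot be told from those of the overlapping locus.

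Together the 4 receptors summed to 38.4 FPKM for control 1 and 31.0 for control 2, beside 32.5 for PAGln 1 and 41.6 for PAGln 2. The sum was 34.7 ± 5.20 FPKM in control and 37.1 ± 6.42 FPKM with PAGln (SD, n = 2 each), a difference smaller than the spread within either group, and its sign turned without control 2 (-1.29 FPKM) and without PAGln 2 (-2.16 FPKM). Without control 1 the difference was 6.06 FPKM and without PAGln 1 it was 6.93 FPKM, against 2.39 FPKM with all libraries. Notch2 held 80.6% of it for control 1 and 77.7% for control 2, beside 79.3% for PAGln 1 and 80.3% for PAGln 2. Notch1 held 10.6% to 13.0%, Notch3 7.85% to 8.60% and Notch4 0.433% to 0.694%.

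Jag1, a Jagged ligand required for heart outflow and liver bile duct development, was the ligand gene of the pair that these cells expressed. It lies on chromosome 3 from 130079361 to 130114770 on the minus strand. Its level was 9.09 FPKM for control 1 and 6.71 for control 2, beside 8.29 for PAGln 1 and 7.61 for PAGln 2. Both PAGln libraries lay between the controls. The group levels were 7.90 ± 1.69 and 7.95 ± 0.481 FPKM (SD, n = 2 each), with a log2 fold change of 0.02 (SE 0.18, 95% interval -0.43 to 0.47, limma adjusted p = 1.00). It was -0.18 without control 2 and -0.04 without PAGln 1.

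Jag2, the other Jagged ligand (chromosome 6, 137711155 to 137733026), had 0 reads for control 1 and 4 for control 2, beside 2 for PAGln 1 and 8 for PAGln 2. A count of 0 in control 1 allows up to 3 reads, or 0.0445 FPKM, so a level like that of PAGln 1 (0.0326 FPKM) could not be told from that of control 1. Such limits, and the intervals on reads below, cover counting error only.

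Hes1, a repressor that Notch induces in many tissues and whose own level oscillates through repression of its promoter, was the second most abundant of the 10 genes. It lies on chromosome 11 from 74312806 to 74315248 on the minus strand. Its level was 11.6 FPKM for control 1 and 12.4 for control 2, beside 10.4 for PAGln 1 and 10.6 for PAGln 2, from 250, 271, 203 and 210 reads. Both PAGln libraries were below both controls. The group levels were 12.0 ± 0.577 FPKM in control and 10.5 ± 0.196 FPKM with PAGln (SD, n = 2 each). The log2 fold change of -0.18 (SE 0.12, 95% interval -0.48 to 0.12) did not pass (limma adjusted p = 1.00, unadjusted p = 0.184). Among all 12334 tested genes, 11.6% had both PAGln libraries below both controls and 11.5% had both above, 23.1% in all, so 1 such gene among 5 tested members is near the background.

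Hey1, Hey2 and Heyl, the HEY family repressors, act in the endocardium, the vessels and the ventricular wall of the heart. Hey2 (chromosome 1, 29191192 to 29201531) had 5 reads for control 1 and 15 for control 2, beside 8 for PAGln 1 and 21 for PAGln 2, or 0.126, 0.372, 0.221 and 0.575 FPKM. Libraries numbered 2 were the high ones in both groups, and the groups overlapped. Heyl (chromosome 5, 140923914 to 140940905) was covered by 13 and 18 reads without PAGln and by 16 and 11 with it, at 0.173 to 0.256 FPKM, with overlapping groups. Hey1 (chromosome 2, 95320283 to 95322696) was covered by 0 reads in both controls, 2 in PAGln 1 and 1 in PAGln 2. These reads are within what a count of 0 allows (3 reads per library), so no difference was detectable at this depth.

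The promoters of Hes1, Hey2 and Heyl are shown because these targets encode related repressors yet differed widely in level (means of 11.3, 0.323 and 0.217 FPKM). Each sequence runs from 250 bases before to 50 bases after the start of the gene, from RefSeq on build GRCr8. Capitals mark TGGGAA, the core letters of the RBPJ site, or its reverse complement. Hes1 is at chr11:84212996-84213295 on the minus strand, Hey2 at chr1:28640850-28641149 on the plus strand and Heyl at chr5:140793021-140793320 on the plus strand.
Hes1: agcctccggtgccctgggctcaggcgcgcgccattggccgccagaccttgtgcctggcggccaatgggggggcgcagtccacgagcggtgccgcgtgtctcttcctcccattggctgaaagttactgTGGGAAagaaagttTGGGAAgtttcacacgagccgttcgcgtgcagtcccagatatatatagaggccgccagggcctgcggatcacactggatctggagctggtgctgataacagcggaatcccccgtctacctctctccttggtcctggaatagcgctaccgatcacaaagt
Hey2: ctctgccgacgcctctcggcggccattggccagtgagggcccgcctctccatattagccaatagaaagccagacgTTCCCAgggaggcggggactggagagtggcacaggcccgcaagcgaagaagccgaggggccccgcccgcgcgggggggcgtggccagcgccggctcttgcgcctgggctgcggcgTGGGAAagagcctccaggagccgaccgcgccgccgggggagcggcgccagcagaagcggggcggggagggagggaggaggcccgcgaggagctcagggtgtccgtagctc
Heyl: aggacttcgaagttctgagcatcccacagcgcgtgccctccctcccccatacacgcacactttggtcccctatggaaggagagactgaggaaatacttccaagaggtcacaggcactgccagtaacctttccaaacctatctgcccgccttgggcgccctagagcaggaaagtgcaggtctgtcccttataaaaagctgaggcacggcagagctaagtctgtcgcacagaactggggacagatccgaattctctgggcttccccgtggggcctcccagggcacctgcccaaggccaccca

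Hes1 held 2 matches to TGGGAA on its own strand, at bases -123 to -118 and -109 to -104 from the start. Hey2 also held 2 matches, at -175 to -170 on the opposite strand and at -60 to -55 on its own. Heyl held 0. Of 33469 RefSeq rat promoters of this length, 25.7% held 1 match or more on either strand and 3.85% held 2 or more. The longer GTGGGAA, which contains TGGGAA, occurred once in Hes1 and once in Hey2, and in 6.29% of all promoters. The N-box letters CACNAG are the type of site through which the mouse Hes1 protein represses its own gene. They occurred 4 times in the Hes1 window on both strands together and 0 times in those of Hey2 and Heyl. Among the other members Notch1 also held 4, Notch4 2 and Notch3 1. Of all promoters 43.1% held 1 or more and 11.2% held 2 or more, and the share with 4 or more was not worked out. Hes1 and Hey2 had the same number of TGGGAA matches, at levels of 11.3 and 0.323 FPKM. RBPJ sites with other letters were not searched for, so equal numbers of matches need not mean equal numbers of sites. Whether such matches bear on the levels was not tested. Of the 10 genes 9 had a promoter entry, and the others with a match to TGGGAA were Notch3 with 1 and Notch4 with 2. Notch4 is on the minus strand in RefSeq and on the plus strand in the deposited tables, so its window may not lie at the start of the gene as counted.

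In order of mean level the genes stood as Notch2, Hes1, Jag1, Notch1, Notch3, Hey2, Heyl, Notch4, Hey1 and Jag2. For each step from Notch2 down to Hey2 the lowest library of the higher gene exceeded the highest library of the lower one. The means differed 2.53-fold from Notch2 to Hes1, 1.42-fold from Hes1 to Jag1, 1.92-fold from Jag1 to Notch1 and 1.39-fold from Notch1 to Notch3. The widest step was from Notch3 to Hey2, at 9.22-fold. Below it the libraries of Hey2 and Heyl overlapped, as did those of Heyl and Notch4 and those of Hey1 and Jag2, so their order is not fixed by these data. Hes1 was at 0.319 to 0.516 times the FPKM of Notch2, and Jag1 at 0.228 to 0.321 times, across the 4 libraries. Hes1 is far shorter than Notch2 (1444 and 11561 bases), and the libraries differed in how level went with gene length, as described below.

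Transcripts that differ after exposure to the metabolite were sought with limma over all genes that reached the filter. In this fit, 0 of the 5 tested members had an adjusted p under 0.05, where the same held for 0 of 12334 tested genes (0%). At an unadjusted p under 0.05 there were 0 members and 262 genes (2.12%). With voom on the reads recovered from the FPKM, 0 genes had an adjusted p under 0.05 and 134 an unadjusted p under 0.05. The intervals of the 5 members had half-widths from 0.30 to 0.49 on the log2 scale, so differences of that size could not be told from none.

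For each of the 5 genes the interval over libraries was wider than the interval from read counts alone. Notch2 was covered by 9525 control and 9315 PAGln reads, and the ratio of its summed reads per library total was 1.08 (exact binomial 95% interval 1.05 to 1.11), while the interval over libraries spanned 0 on the log2 scale. For Hes1 the ratio was 0.875 (0.767 to 0.998), from 521 and 413 reads. For Jag1 it was 1.01 (0.932 to 1.09), for Notch1 0.996 (0.916 to 1.08) and for Notch3 1.10 (0.987 to 1.24). These ratios compare the libraries, not the conditions.

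**Figure D2:**
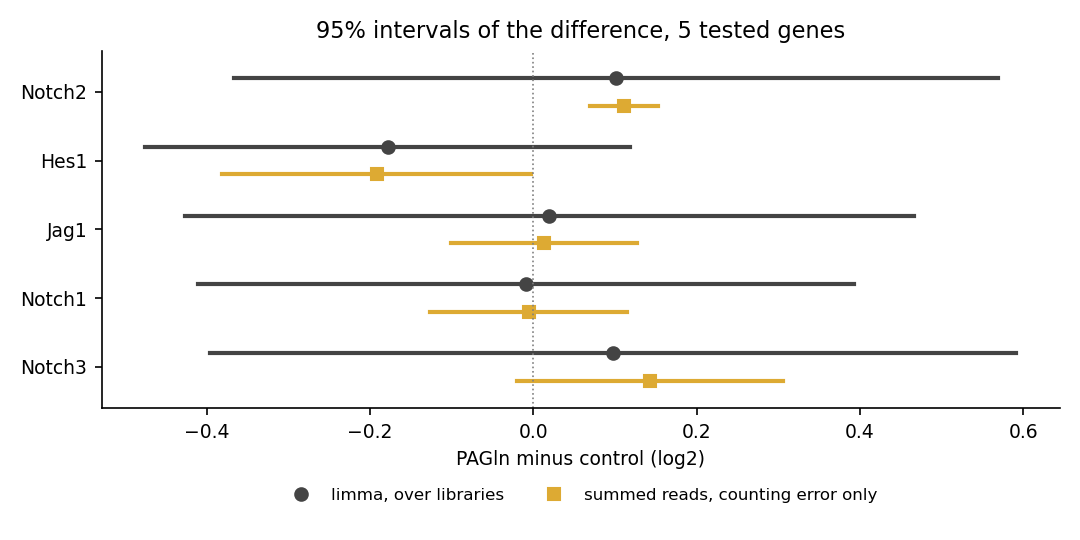
Difference between PAGln and control on the log2 scale (x axis) for the 5 tested genes, as the limma estimate on log2(FPKM + 1) with its 95% interval over libraries (dark circles) and as the ratio of summed reads with its 95% counting interval (yellow squares). All 5 dark intervals span 0, and for Notch2 the interval over libraries (-0.37 to 0.57) is far wider than the counting interval.

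Among the genes that were not tested, the summed reads were 37 in control and 40 in PAGln libraries for Notch4, a ratio of 1.19 (0.744 to 1.92). They were 20 and 29 for Hey2, a ratio of 1.60 (0.875 to 2.99), and 31 and 27 for Heyl, a ratio of 0.962 (0.552 to 1.67). Jag2 had 4 and 10 reads, a ratio of 2.76 (0.796 to 12.1). Every one of these counting intervals includes 1.

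The other parts of the pathway were read from a list of 62 genes in 8 roles, of which 60 matched a row (Kat2b through a RefSeq synonym) and 48 reached the filter. None of the 48 passed limma at an adjusted p under 0.05, in either direction, and 0 had an unadjusted p under 0.05. Their log2 fold changes were above 0 for 28 and below 0 for 20, with a median of 0.02, beside a median of 0.00 over all tested genes. Both PAGln libraries lay above both controls for 6 of the 48 and below them for 4, against 11.5% and 11.6% of all tested genes.

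Delta-like ligands were scarce. Dll1, Dll3 and Dll4 had means of 0.0712, 0.106 and 0.00404 FPKM, and Dlk1 was at 0 in all 4 libraries. Dlk2, a non-canonical ligand that lacks the DSL domain, had 5.27 and 4.60 FPKM without PAGln, beside 3.94 and 4.22 FPKM with it. Its groups did not overlap, and its log2 fold change was -0.22 (SE 0.16, unadjusted p = 0.210, limma adjusted p = 1.00). Mfap5, a microfibril protein reported to bind Notch ligands and receptors, had a mean of 39.1 FPKM and a log2 fold change of -0.06.

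Genes that modify the receptor or move the ligand were expressed. Of the sugar transferases, Poglut1, which adds glucose to the EGF repeats of Notch, had a mean of 65.7 FPKM and Pofut1, which adds fucose, 26.8 FPKM, with log2 fold changes of 0.05 each. Of the 3 Fringe genes, Mfng was at 0, while Lfng and Rfng had means of 26.5 and 24.0 FPKM. Neurl1b, a ubiquitin ligase of ligand endocytosis, had 9.86 and 6.99 FPKM without PAGln, beside 10.1 and 10.9 FPKM with it, a log2 fold change of 0.30 (SE 0.18, unadjusted p = 0.157). It was 0.082 without control 2 and 0.52 without control 1 (unadjusted p = 0.034, limma adjusted p = 0.963). Mib1, the ubiquitin ligase that most ligand signalling depends on, had 13.3 and 8.68 FPKM without PAGln, beside 12.3 and 14.1 FPKM with it, and its log2 fold change of 0.27 was -0.0083 without control 2 and 0.55 without control 1. Mib2 had a mean of 12.9 FPKM and a log2 fold change of -0.06.

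All 9 proteases of receptor maturation and cleavage reached the filter. Furin, which cuts the receptor in the Golgi, had 53.8 and 55.8 FPKM without PAGln, beside 50.4 and 47.1 FPKM with it. Its groups did not overlap, and its log2 fold change was -0.17 (SE 0.10, unadjusted p = 0.155, limma adjusted p = 1.00). Ncstn, the nicastrin subunit of gamma-secretase, was the most abundant at a mean of 75.5 FPKM, with a log2 fold change of -0.01.

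In the nucleus, Rbpj had a mean of 49.7 FPKM, with 54.7 for control 1 and 40.8 for control 2, beside 46.5 for PAGln 1 and 56.6 for PAGln 2. As with Notch2, control 1 and PAGln 2 were the high libraries, and the log2 fold change of 0.12 (SE 0.18) was -0.09 without control 2 and -0.02 without PAGln 2. The coactivator Maml2 had 7.86 and 7.38 FPKM without PAGln, beside 8.22 and 10.1 FPKM with it, a log2 fold change of 0.23 (SE 0.15, unadjusted p = 0.179) that was 0.097 without PAGln 2 and 0.37 without PAGln 1. All 12 corepressor genes reached the filter, the most abundant being Ctbp1 (123 FPKM, log2 fold change -0.06). The Groucho family gene Tle2 had 7.02 ± 0.451 and 6.14 ± 0.343 FPKM and L3mbtl3, a partner of RBPJ, had 7.62 ± 0.671 and 8.52 ± 0.386 FPKM in control and PAGln libraries (SD, n = 2 each).

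Of the regulators of receptor turnover, Dtx3 was the most abundant (38.0 FPKM, log2 fold change -0.03). Numb, an endocytic inhibitor of Notch, had 14.4 ± 0.802 FPKM in control and 15.9 ± 1.16 FPKM with PAGln (SD, n = 2 each), and the groups did not overlap. Itch, a ubiquitin ligase for Notch, had 18.6, 11.5, 14.2 and 18.3 FPKM in control 1, control 2, PAGln 1 and PAGln 2, so its spread within each group exceeded the difference. Of the 4 other targets and HES family genes that reached the filter, 3 had a log2 fold change below 0. The same held for 6092 of all 12334 tested genes. Nrarp, a feedback inhibitor that Notch induces, had 2.24 and 2.99 FPKM without PAGln, beside 3.13 and 2.87 FPKM with it. Its log2 fold change was 0.15 (SE 0.20), and it was 0.0023 without control 1 and 0.30 without control 2. Hes6, a HES family gene, had 10.8 FPKM for control 1 and 13.6 for control 2, beside 10.7 for PAGln 1 and 10.9 for PAGln 2. Its log2 fold change was -0.15 (SE 0.15). Control 1 lay between the PAGln libraries, so this value rested on control 2. Hes7, the clock gene of somite formation, had 2.41 FPKM for control 1 and 5.38 for control 2, beside 2.55 for PAGln 1 and 2.73 for PAGln 2. Its log2 fold change of -0.36 (SE 0.33) rested on control 2, without which it was 0.09. Hes2 was at 0 in all libraries, and Hes3 and Hes5 had 0.0149 and 0.0284 FPKM on average. Bhlhe40, a related repressor, was the most abundant of this role at 71.2 FPKM, with a log2 fold change of -0.03.

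**Figure D3:**
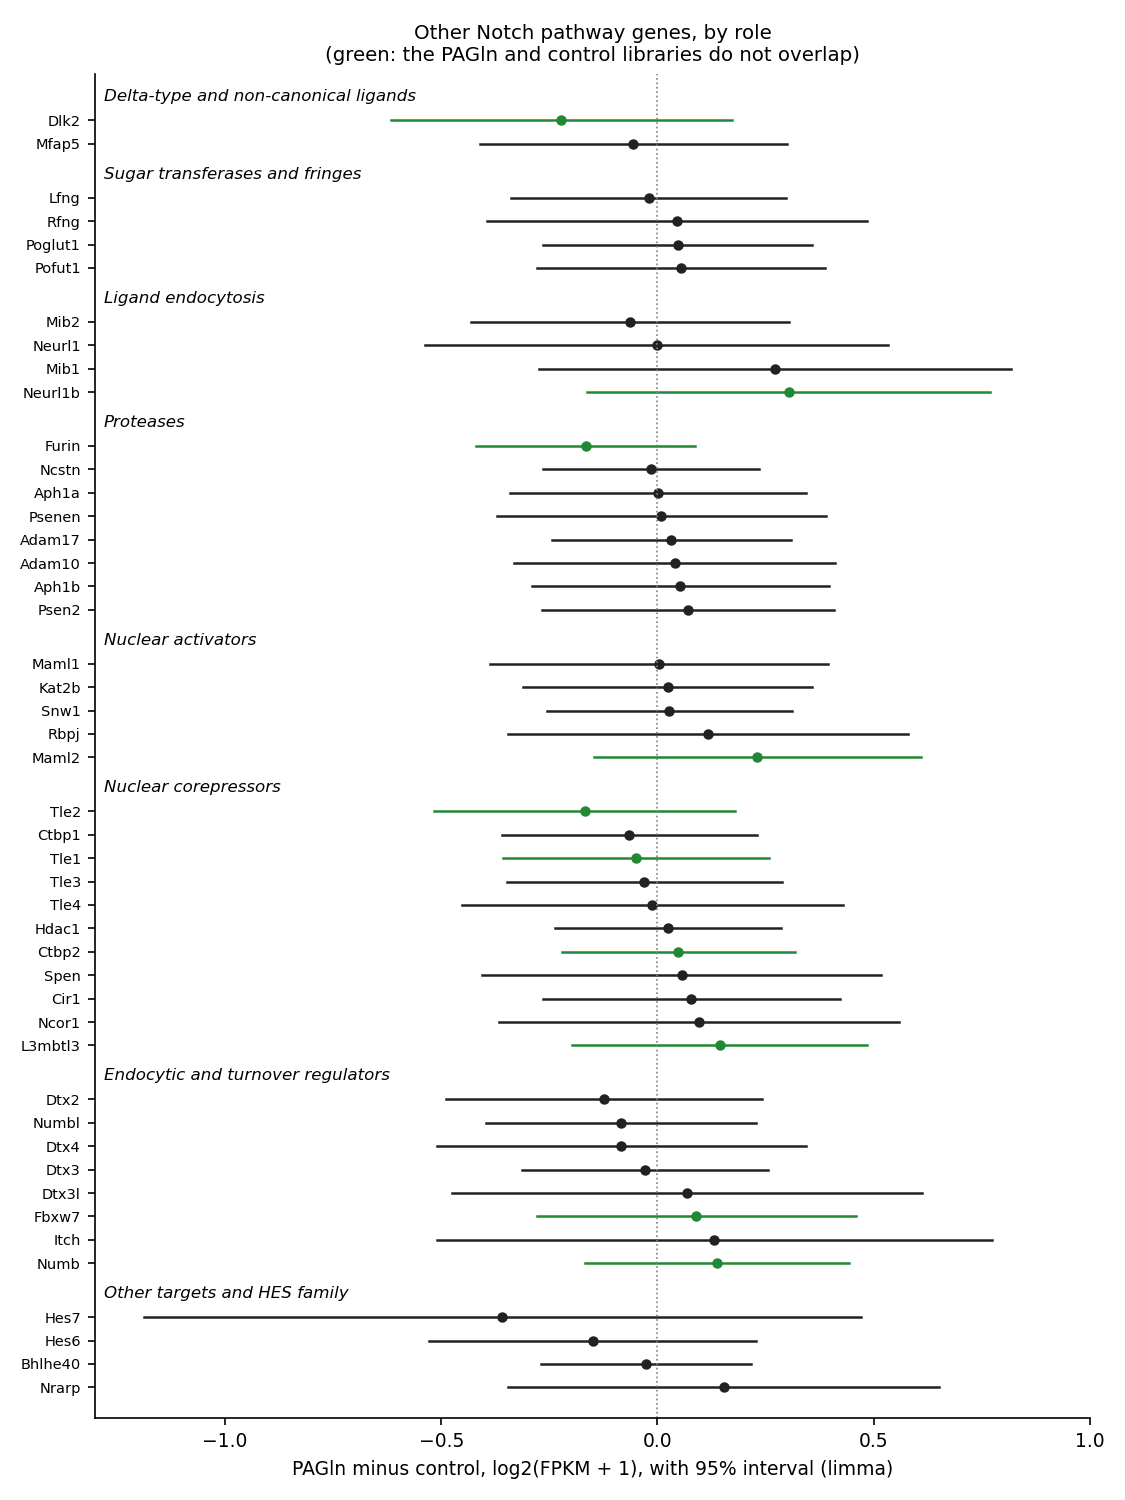
Difference between PAGln and control on the log2(FPKM + 1) scale with its limma 95% interval (x axis) for 46 of the 48 tested pathway genes (y axis), grouped by role. Every interval drawn spans 0, and green marks the 10 genes whose PAGln and control libraries do not overlap.

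The libraries differed in how level went with gene length. In control 1 the tested genes of 5000 bases or more (1294 genes) had a median deviation of 0.08 from their 4-library mean on the log2(FPKM + 1) scale. Control 2 stood at -0.12, PAGln 1 at -0.06 and PAGln 2 at 0.10. Genes under 1500 bases (3738 genes) went the other way, at -0.05, 0.08, 0.04 and -0.06. Notch2, at 11561 bases, deviated by 0.12, -0.22, -0.13 and 0.23 in the same order of libraries.

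Of the 9 tested Notch members and pathway genes of 5000 bases or more (Notch1, Notch2, Notch3 and Jag1 among them), 8 were higher in both control 1 and PAGln 2 than in both other libraries, the exception being Jag1. Of the 44 shorter ones 10 showed this order and 16 the reverse. The median over all 1294 tested genes of 5000 bases or more was likewise higher in control 1 and PAGln 2 than in the other libraries. How many of all tested genes show this order was not counted, so it cannot be read as particular to Notch genes. With each library's trend on gene length removed, an alternative added after seeing the data, the log2 fold change was 0.03 for Notch2, 0.05 for Notch3, -0.07 for Notch1, -0.01 for Jag1 and -0.15 for Hes1. For Hes1, at 1444 bases, the value before this step was -0.18. Whether the length trend bears on it was not tested. The cause of the length trend was not tested.

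**Figure D4:**
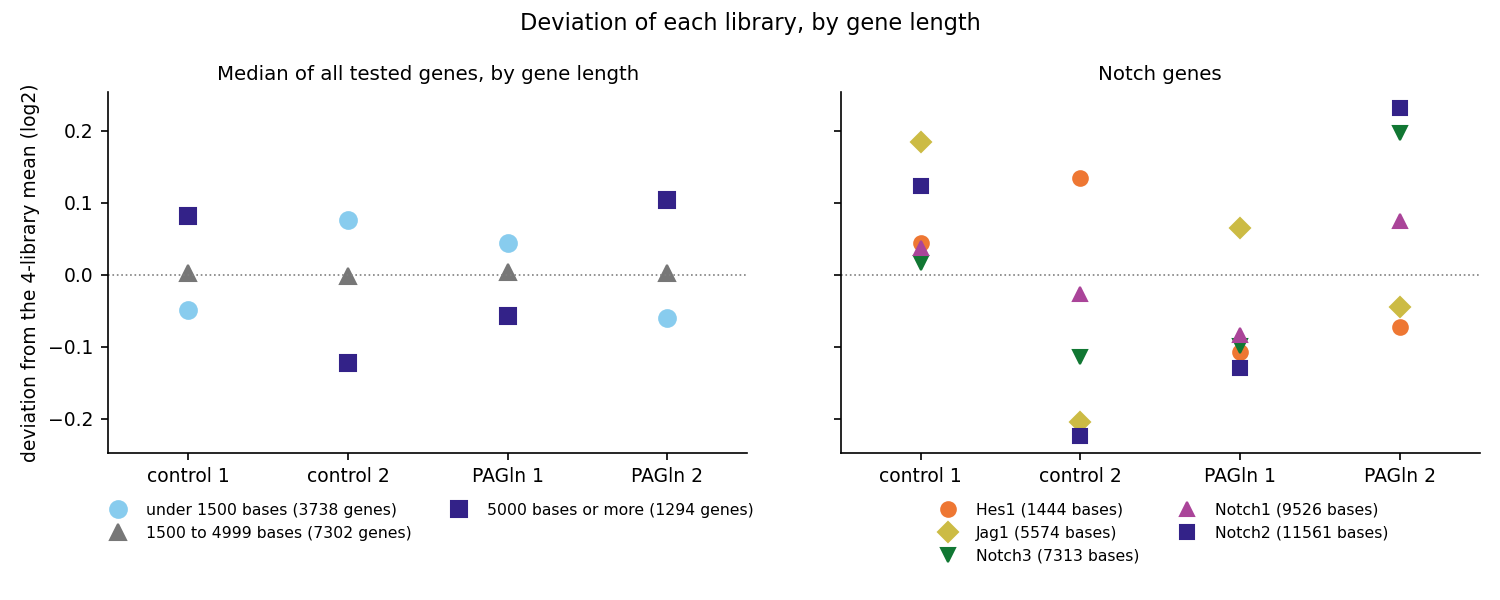
Deviation from the 4-library mean on the log2(FPKM + 1) scale (y axis) in each library, as the median of all tested genes in 3 classes of gene length (left) and for the 5 tested Notch genes (right). Long genes and Notch2 are high in control 1 and PAGln 2 and low in control 2 and PAGln 1, while Hes1 is low in both PAGln libraries.

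Hes1 was the tested member with the largest log2 fold change in size. Measured by the Euclidean distance between profiles centred on their own mean over the 4 libraries, the genes nearest to it among 10460 were Card14 (0.00841), Prpf18 (0.00998) and Dkk4 (0.0155), on the log2(FPKM + 1) scale. Their log2 fold changes were -0.18, -0.18 and -0.19, and 31 genes lay within a distance of 0.05. With 4 libraries such likeness is a description of these libraries only.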

How the data were processed

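RNA of 4 libraries was taken up in Trizol and made into libraries with a TruSeq RNA kit, per the labels' protocols. Groups come from the treatment label and replicate numbers from the titles. The design text and the labels differ on the number of repeats, and 2 libraries per group were analysed. Each library has its own table of FPKM by gene, as the authors deposited it. Bowtie 0.12.2 and hg38 are named in the submitters' processing notes; hg38 is a human build, but the identifiers are those of rat Ensembl genes. For the rat build, the counting tool and the use of strand, the answer is not given in the sources used, and coordinates are printed as deposited.

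FPKM times gene length was a whole multiple of 1 step per library for 100% of values above 0 (tolerance 0.01 of a read). Taking the step as 1 read gave the reads used for counting intervals and for limma's voom. The test was limma 3.58.1 in R 4.3.3 on log2(FPKM + 1) with a variance trend, two-sided, over the 12334 genes whose 4-library mean reached 1 FPKM, Benjamini-Hochberg adjusted at 0.05. Fold changes on this scale understate changes of low genes. The fit was checked on simulated data with independent errors, which held no trend on gene length. Within groups, libraries varied beyond sampling noise (16.8 in control and 15.2 with PAGln as chi-square per gene on these reads), so each counted as 1 replicate.

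The members and lists were chosen with earlier results of these data known. Named pathway genes were, per role, the most abundant and the up to 2 with the largest absolute log2 fold change. Some pathway genes are counted but not reported here by name. Genes also named for being scarce or at 0 (Dll1, Dll3, Dll4, Dlk1, Mfng, Lfng, Rfng, Hes2, Hes3, Hes5), and Hes6, were chosen after their values were seen. Promoters were matched by symbol to RefSeq on GRCr8. Alternatives were other pseudocounts, filters, scalings and variance models, voom, a replicate block, and each library left out. A crossed block and a gene length correction were added after seeing the data.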

Additional observations from a re-analysis of the deposited data

How the results depend on the processing

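Under the 14 alternatives, 0 of the Notch members and 0 of the other pathway genes passed limma, as with all libraries. The number of genes passing over the whole table was 0, but 7 with the replicate block, 1 with the gene length correction and 1 to 13 when 1 library was left out (2 and 1 with control 1 or control 2 left out, 5 and 13 with PAGln 1 or PAGln 2 left out). The cause was not tested. Same-numbered libraries share only a number: their deviations from the group means correlated at -0.28 over 12334 genes, and the replicate block left 0 members and 0 pathway genes passing. The crossed pairing of the numbers, added with the data in view, also gave 0 genes, with 899 at an unadjusted p under 0.05 against 262.

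The log2 fold change of Hes1 stayed below 0 in all 14 alternatives (-0.22 to -0.13 when a library was left out). Both its PAGln libraries lay below both controls, so leaving out a library could not turn the sign. Of 70 values of members under alternatives, 9 changed sign, 7 of them when a library was left out, and of 280 values of named pathway genes 18 did, all when a library was left out. With a library left out, the log2 fold change of those genes ran from -0.089 to 0.070 for Notch1, -0.063 to 0.034 for Ncstn, -0.079 to 0.28 for Notch2, -0.18 to 0.21 for Jag1, -0.19 to 0.078 for Mfap5, -0.077 to 0.17 for Poglut1, -0.048 to 0.16 for Pofut1, -0.19 to 0.061 for Mib2, -0.0083 to 0.55 for Mib1, -0.090 to 0.33 for Rbpj, -0.17 to 0.038 for Ctbp1, -0.12 to 0.059 for Dtx3, -0.19 to 0.46 for Itch, -0.81 to 0.093 for Hes7, -0.061 to 0.0090 for Bhlhe40 and -0.050 to 0.25 for Notch3. Of genes that kept their sign, the range was -0.30 to -0.14 for Dlk2, -0.23 to -0.11 for Tle2, 0.064 to 0.22 for L3mbtl3 and 0.068 to 0.21 for Numb. The groups of these genes did not overlap, so their signs could not turn in this way either. Jag1 was also below 0 with quantile normalization (-0.0029) and with the gene length correction (-0.012). The depth limits Notch4, Jag2, Hey1, Hey2 and Heyl, each with 23 reads or fewer in every library.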
